A study of Mus musculus with 48 samples.

Results

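The 44 genes described here encode the machinery of DNA replication and mitosis. They were taken as a list of cell cycle and proliferation genes, chosen with earlier results of these data known. The shares over all tested genes given beside their counts are thus descriptive. The genes were found by matching the Ensembl identifiers of the count tables to gene symbols. All 44 were found among the 46983 genes listed, and all 44 had more than 10 counts over the 48 libraries, which placed them among the 19970 genes tested. By role, 12 act in DNA replication (7 at the replicative helicase and 5 in nucleotide supply or at the fork), and 32 act in mitosis or in its control.

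The study followed cortex after permanent middle cerebral artery occlusion (MCAO), in which the artery is closed for good by coagulation and cut, in C57Black/6 male mice 3 months of age. MCAO groups held 5 libraries at 3 h, 12 h, day 3 and day 7 and 4 libraries at 24 h. Sham groups, which had the surgery with the artery left patent, held 4 libraries at each of these times, and 4 control libraries came from intact cortex. Per the study's methods, bulk RNA came from the injured cortical region, affected and unaffected tissue alike. Its results text describes the bulk samples differently, as almost all of the hemisphere on the lesion side. The RNA was sequenced from the 3′ end (QuantSeq), so that a count stands for a transcript irrespective of its length. All groups were of this strain, sex and age.

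A cell that is to divide first loads the Mcm helicase onto its DNA, raises its supply of nucleotides and copies its genome; only then do cyclins and Cdk1, with the Plk and Aurora kinases, drive spindle assembly, chromosome segregation and cytokinesis. Most mitotic genes are transcribed late in the cycle and are near silent in cells that have left it, whereas several replication genes keep a level in resting tissue because their products also serve DNA repair or metabolism. Adult cortex holds few dividing cells, mainly oligodendrocyte precursors (OPC), and after injury microglia, endothelial cells, fibroblasts and OPC can re-enter the cycle. In bulk tissue a change in the number of cells of a type and a change in RNA per cell cannot be told apart.

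Libraries held 1522668 to 2826735 counts on genes, with a median of 1935856, which limits what can be seen of genes at a few counts. Levels are given as CPM, counts scaled by TMM and brought to a common library total. Neuron markers (10 genes, Snap25 and Syt1 among them) summed to 8966 to 10800 CPM in the sham and control libraries, and were thus present in each. The libraries that stood apart for the 44 genes were MCAO replicate A on day 3, which lay near the sham level, and MCAO replicate C on day 7, which reached the day 3 level. For the 44 genes as a set against sham, the counts called, medians and sums of these days are therefore given with and without them. So are the estimates of those called on day 7 against sham. Calls in the other lists and markers, calls against control on day 3 and tests between times are given with all libraries only.

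By group means of their sum, the 44 genes were low in uninjured cortex, highest on day 3 after MCAO and lower, though above sham, on day 7. By library, the MCAO groups of day 3 and day 7 overlapped. The summed level was 134.5, 147.3, 138.9 and 137.0 CPM in the control libraries and stayed between 115.0 and 158.1 CPM over the 20 sham libraries. After MCAO it was 121.2 to 151.2 CPM at 3 h, inside the sham range of 117.4 to 155.4. It was 149.8 to 188.3 CPM at 12 h against 119.5 to 135.6 in sham, and 234.9, 179.5, 157.2 and 234.0 CPM at 24 h against 116.3 to 152.6 in sham, so that at both times every MCAO library lay above every sham library. On day 3 the MCAO libraries held 158.0, 707.6, 1177, 1135 and 1379 CPM (911.5 ± 487, SD, n = 5), against 158.1, 140.8, 138.7 and 122.7 in sham. Replicates B to E were thus several times above the shams, while A, at 158.0 against the highest sham of 158.1, overlapped by the smallest margin. On each of 5 alternatives (DESeq2 size factors, spike-ins, without Anln, mean log2 and the deposited log2 values) the day 3 groups did not overlap. The lowest MCAO library and the highest sham were still close with DESeq2 size factors (156 and 155 CPM). They were also close with spike-ins (165 and 163) and without Anln (153 and 150). On mean log2 they were 1.79 and 1.48, and on the deposited values 4.7 and 4.56. Without A the day 3 MCAO mean was 1100 CPM (SD 282, n = 4). On day 7 the MCAO libraries held 228.5, 228.5, 977.5, 204.9 and 245.5 CPM (377.0 ± 336, SD, n = 5) against 115.0 to 137.4 in sham, and the groups did not overlap with or without replicate C. Without C the mean was 226.8 CPM (SD 16.7, n = 4). All 44 genes had their highest MCAO group mean on day 3.

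**Figure D1:**
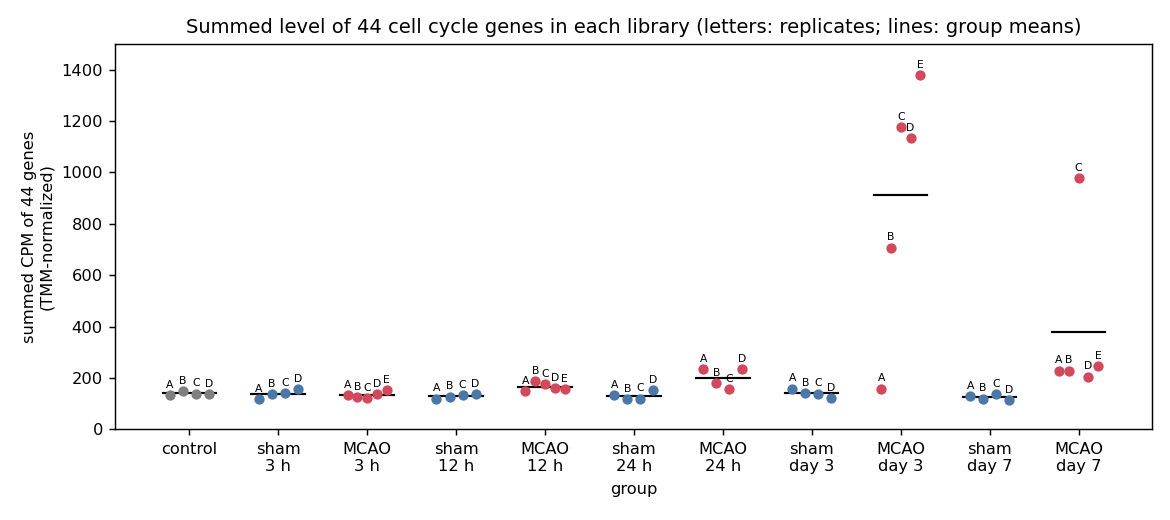
Summed TMM-normalized CPM of the 44 genes (y axis) in each of the 48 libraries by group (x axis), with replicate letters and a line at the group mean. Control and sham libraries sit between 115.0 and 158.1 CPM, MCAO day 3 replicates B to E between 707.6 and 1379, and day 7 replicate C at 977.5 away from the other 4.

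Genes were tested by the quasi-likelihood method of edgeR, with p-values adjusted over all 19970 by Benjamini and Hochberg, and a gene was called at an adjusted p under 0.01 with a log2 fold change beyond 0.58 in either direction. On day 3, 29 of the 44 genes were called higher than sham and 0 lower, beside 3.76% of all tested genes called higher and 0.26% lower, and the fold changes of all 44 were above 0. The median log2 fold change was 3.46 for the 44 genes and 0.01 for all tested genes, and 42 (95.5%) had an unadjusted p under 0.05, beside 21.6% of all tested genes. Every MCAO library lay above every sham library for 19 of the 44, beside 4.33% of all tested genes. On day 7, 11 were called higher and 0 lower (background 2.07% and 1.43%), with a median log2 fold change of 1.82, and 15 did not overlap with sham (background 5.38%). Against control, 27 were called higher and 0 lower on day 3 (background 2.81% and 0.29%) and 8 higher and 0 lower on day 7 (background 1.09% and 0.416%). These comparisons use the same MCAO libraries as those against sham. For genes whose shams held no count the fitted value depends on the prior count of the fit; with those genes at the bound that 3 counts over the sham group give, the medians were 3.45 on day 3 and 1.66 on day 7.

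Which libraries entered changed these counts. MCAO replicates A of day 3 and C of day 7 were singled out on the levels of these same genes. The counts without them, and the shares beside them, are thus descriptive. Without MCAO replicate A, 37 genes were called on day 3 (background 5.46%), the 29 among them, and the median log2 fold change was 3.72. The 8 added were Mcm2, Mcm6, Rrm1, Aurkb, Bub1, Kif11, Kif4 and Racgap1. Leaving out each other day 3 library in turn gave 22 (without MCAO replicate E) to 28 calls. All 44 genes were lower in replicate A than in each of B to E, and for 38 of 44 every one of B to E lay above every sham library (background 10.2%). Without MCAO replicate C, 3 genes were called on day 7 (background 0.718%), namely Ube2c, Cdk1 and Cenpf, and the median log2 fold change was 1.34 with 40 of 44 above 0. For 15 of 44, every one of A, B, D and E still lay above every sham library (background 6.72%). Leaving out sham replicate B, C or D left 5 called on day 7 in each case. Of the 8 genes called on day 7 against control, 0 were left without MCAO replicate C, and 1, 2, 4 and 2 genes were called without control replicates A, B, C and D. In replicate C, 39 genes were higher than in each of the other 4 day 7 MCAO libraries, and 36 were at or above the lowest of day 3 replicates B to E. For these counts, and for that of genes lowest in day 3 replicate A, the share over all tested genes was not computed.

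**Figure D2:**
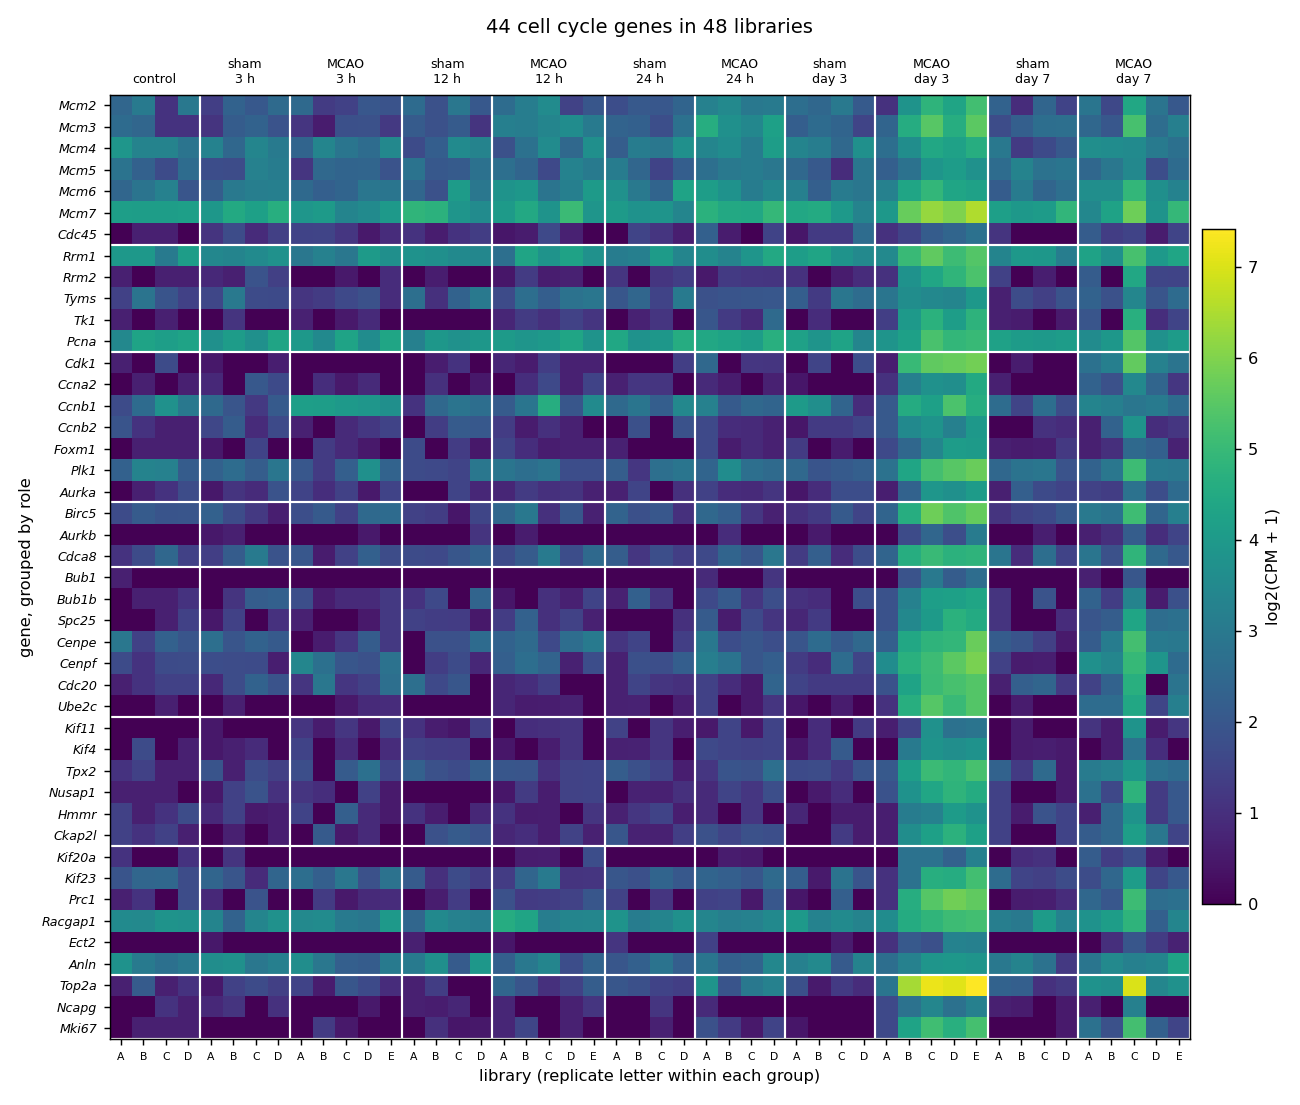
Level of each of the 44 genes (rows, grouped by role with white lines) in each of the 48 libraries (columns, by group and replicate letter) as log2(CPM + 1). The bright columns are MCAO day 3 replicates B to E and day 7 replicate C; Mcm7, Rrm1, Pcna and Racgap1 have a level in every library, while Bub1 and Ect2 are nearly dark in sham and control.

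The replication genes held most of the summed level in sham and the mitosis genes most of it on day 3 after MCAO. In the sham libraries of day 3 the 12 replication genes made up 57.24% to 58.69% of the summed level of the 44, and in MCAO replicates B to E they made up 24.52% to 30.14%, with 44.93% in replicate A. On day 3, 4 of the 12 replication genes and 25 of the 32 mitosis genes were called, with median log2 fold changes of 1.46 and 4.12 (3.96 with the genes absent from sham at their bound). Without replicate A these were 7 and 30, with medians of 1.65 and 4.40. On day 7, 0 of 12 and 11 of 32 were called, with medians of 1.44 and 2.47 (1.94 at the bound); without replicate C they were 0 and 3, with medians of 0.81 and 1.57. For the replication genes on day 7, 9 of 12 had an unadjusted p under 0.05 by edgeR with all libraries (beside 23.5% of all tested genes), and DESeq2 called 1 of 12. The sums moved apart in the same way: the replication genes reached 213.3, 353.6, 278.3 and 384.3 CPM in day 3 replicates B to E against 70.27 to 91.02 in sham, and the mitosis genes 494.3, 823.5, 857.0 and 995.1 CPM against 52.47 to 67.09. In replicate A the replication sum was 71.00 CPM, inside the sham range, and the mitosis sum 87.02 CPM, above it. The difference between the replication and the mitosis genes was not tested.

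**Figure D3:**
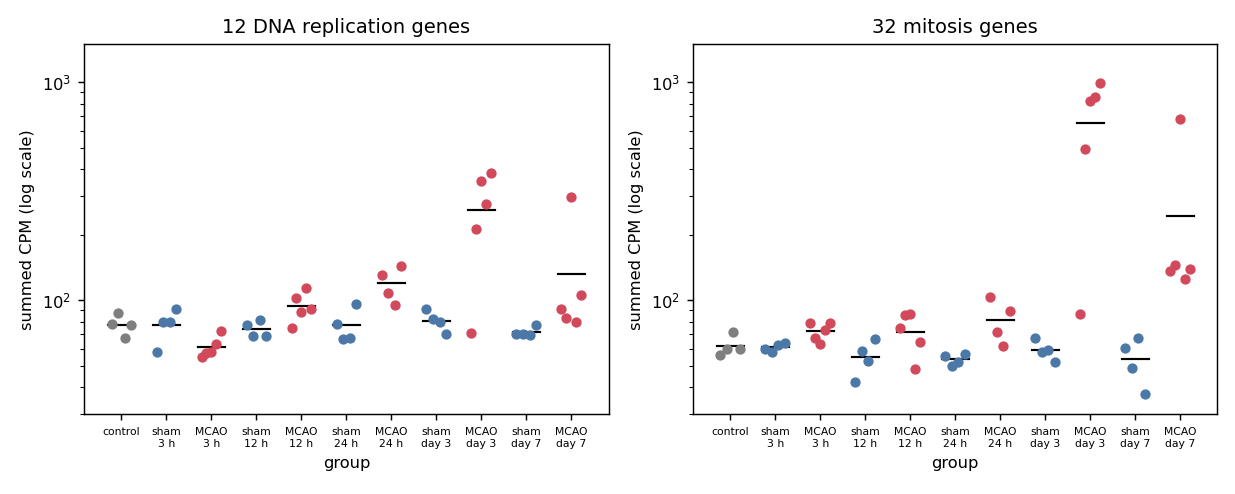
Summed CPM of the 12 DNA replication genes (left) and of the 32 mitosis genes (right) by group, on log y axes; points are libraries and lines group means. Sham libraries of day 3 sit at 70.27 to 91.02 CPM on the left and 52.47 to 67.09 on the right, and MCAO replicates B to E at 213.3 to 384.3 on the left and 494.3 to 995.1 on the right.

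The promoters of these genes are shown because mitotic genes are known to share a promoter layout, CCAAT boxes bound by NF-Y upstream of a cell cycle homology region (CHR) bound by the MuvB complex, and replication genes one of E2F sites. RefSeq promoters of the GRCm38.p6 build, 250 bases before to 50 after the start site, were matched by symbol for 38 of the 44 genes, the first entry being used where a gene had several. The letters searched on both strands were CCAAT for the CCAAT box, TTTGAA for the CHR, and TTTCCCGC, TTTCGCGC, TTTGCCGC and TTTGGCGC for the E2F site, with no base shared between motifs in the promoters printed. The TTTGAA letters were in 22 of 27 promoters of mitosis genes (81.5%) and in 2 of 11 of replication genes (18.2%), beside 18.1% of the 27025 promoters of all genes and 12.4% of the 13079 of tested genes. CCAAT was in 24 of 27 (88.9%) and 9 of 11 (81.8%), beside 37.9% of all, and 21 of 27 held both beside 7.12% of all. The E2F letters were in 4 of 11 replication promoters, those of Mcm3, Mcm5, Mcm6 and Mcm7, each with more than 1 match, and in 2 of 27 mitosis promoters (Cdk1 and Ncapg), beside 2.32% of all. A match of letters describes the sequence and is no measured site. The promoter is printed for the gene with the highest mean level in 6 of the roles where the table holds 1 promoter for that gene, 5′ to 3′ on the gene's strand, with matched letters in capitals.
Pcna, chr2:132253131-132253430, minus strand: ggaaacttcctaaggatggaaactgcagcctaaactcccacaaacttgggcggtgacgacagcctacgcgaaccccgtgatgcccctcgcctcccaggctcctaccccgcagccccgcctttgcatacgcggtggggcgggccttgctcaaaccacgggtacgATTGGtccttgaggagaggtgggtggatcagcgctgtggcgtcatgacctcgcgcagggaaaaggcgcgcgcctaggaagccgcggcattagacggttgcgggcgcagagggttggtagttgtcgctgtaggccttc
Ccnb1, chr13:100786437-100786736, minus strand: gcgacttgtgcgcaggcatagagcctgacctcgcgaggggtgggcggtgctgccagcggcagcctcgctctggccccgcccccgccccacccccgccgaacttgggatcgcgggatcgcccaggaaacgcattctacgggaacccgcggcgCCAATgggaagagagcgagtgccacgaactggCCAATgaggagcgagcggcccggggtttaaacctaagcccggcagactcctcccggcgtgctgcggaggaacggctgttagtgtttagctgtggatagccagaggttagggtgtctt
Birc5, chr11:117848987-117849286, plus strand: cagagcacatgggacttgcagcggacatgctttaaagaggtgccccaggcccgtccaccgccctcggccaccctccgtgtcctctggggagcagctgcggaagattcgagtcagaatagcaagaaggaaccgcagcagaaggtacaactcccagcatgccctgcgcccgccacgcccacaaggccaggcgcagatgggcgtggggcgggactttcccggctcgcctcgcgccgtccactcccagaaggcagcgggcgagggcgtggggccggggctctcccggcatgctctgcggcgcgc
Cenpf, chr1:189688037-189688336, minus strand: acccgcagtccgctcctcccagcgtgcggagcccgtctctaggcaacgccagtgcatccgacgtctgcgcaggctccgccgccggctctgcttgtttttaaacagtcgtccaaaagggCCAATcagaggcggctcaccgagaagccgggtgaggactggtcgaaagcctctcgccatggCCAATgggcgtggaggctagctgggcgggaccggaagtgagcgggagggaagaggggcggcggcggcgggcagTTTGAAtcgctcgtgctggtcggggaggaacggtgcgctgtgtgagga
Racgap1, chr15:99651607-99651906, minus strand: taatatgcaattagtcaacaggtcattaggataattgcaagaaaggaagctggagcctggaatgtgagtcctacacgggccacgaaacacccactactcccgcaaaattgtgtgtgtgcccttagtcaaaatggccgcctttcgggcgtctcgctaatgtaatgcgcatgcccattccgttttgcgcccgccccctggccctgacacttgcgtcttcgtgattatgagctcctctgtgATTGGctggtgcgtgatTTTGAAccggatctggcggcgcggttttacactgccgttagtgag
Top2a, chr11:99024140-99024439, minus strand: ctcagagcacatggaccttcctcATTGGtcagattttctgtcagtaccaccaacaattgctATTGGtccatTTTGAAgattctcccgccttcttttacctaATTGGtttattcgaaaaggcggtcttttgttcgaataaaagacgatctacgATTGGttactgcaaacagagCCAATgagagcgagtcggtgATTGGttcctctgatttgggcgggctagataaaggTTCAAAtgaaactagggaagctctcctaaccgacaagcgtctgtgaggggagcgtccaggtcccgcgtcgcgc
Top2a, which rose far on day 3, held 6 CCAAT and 2 TTTGAA matches. Cenpf held 2 CCAAT and 1 TTTGAA, and Racgap1, which was not called, held 1 of each. Ccnb1, also not called, held 2 CCAAT and no TTTGAA. Pcna held 1 CCAAT, and Birc5, which was among the genes called on both days, held none of these letters. Whether these letters go with the fold changes was not tested.

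Of the 7 helicase genes, Mcm3 and Mcm7 were called on day 3 and none was called lower. Mcm3, a subunit of the helicase ring, was at 3.63, 5.08, 4.20 and 1.87 CPM in sham and at 4.27, 23.1, 43.5, 23.4 and 45.4 CPM after MCAO on day 3. Replicates B to E lay far above sham and A within it, and the log2 fold change was 2.90 ± 0.53 (SE, adjusted p = 0.000163). Mcm7, another ring subunit, was at 20.7, 22.2, 14.9 and 8.90 CPM in sham and at 14.4, 50.6, 74.9, 62.0 and 91.7 CPM after MCAO (log2 fold change 1.81 ± 0.36, adjusted p = 0.000531); replicate A again lay within the sham range, and the call was lost under 1 alternative. Mcm7 shares bases with Cops6 and Ap4m1 on the other strand. The other 5 were not called: Mcm2, Mcm4, Mcm5 and Mcm6, the remaining ring subunits described here, had log2 fold changes of 1.90, 0.90, 1.40 and 1.52 with adjusted p of 0.0155, 0.174, 0.0453 and 0.0108, and Cdc45, which joins the ring into an active helicase, had 0.69 with 0.613. Mcm6 was nonetheless above sham in each MCAO library of day 3, at 8.54, 19.4, 29.0, 19.5 and 18.1 CPM against 8.34, 3.69, 7.47 and 6.56. Mcm2 was at 1.07, 13.1, 27.5, 19.0 and 34.8 CPM against 3.28 to 7.01 in sham, with replicate A below every sham. Mcm5 alone of the 44 genes had a day 7 estimate below 0 (-0.22 ± 0.46, adjusted p = 0.824).

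Of the 5 genes of nucleotide supply and the fork, Tk1 and Rrm2 were called on day 3. Tk1, the thymidine kinase made in S phase, had 2 counts over the 4 sham libraries. It was at 1.60, 14.9, 25.5, 16.6 and 26.4 CPM after MCAO, 80.0 times sham with a 95% counting interval of 21.8 to 666 (log2 fold change 5.93 ± 1.03, adjusted p = 9.04e-05), and every MCAO library was above every sham library. Rrm2, the ribonucleotide reductase subunit tied to the cycle, rose 32.2-fold in mean CPM (20.1 against 0.623, adjusted p = 0.0001). In replicate A Rrm2 was at 1.07 CPM, inside the sham range of 0 to 1.09. Its partner Rrm1 was present at 10.3 to 18.9 CPM in sham and reached 10.1, 31.6, 47.4, 32.7 and 42.3 CPM (log2 fold change 1.16 ± 0.33, adjusted p = 0.0171), which was not called. Pcna, the sliding clamp of the polymerases, was at 17.8, 13.4, 18.7 and 9.37 CPM in sham and 13.3, 17.6, 38.0, 29.3 and 30.9 CPM after MCAO, with A and B inside the sham range (log2 fold change 0.80 ± 0.29, adjusted p = 0.0838). Tyms, the thymidylate synthase, had 1.30 with an adjusted p of 0.0626.

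Of the 7 cyclin, kinase and regulator genes, 6 were called on day 3, Ccnb1 being the exception. Cdk1, the kinase that drives entry into mitosis, was at 0, 1.85, 0 and 2.34 CPM in sham and at 0.534, 31.2, 47.4, 50.3 and 55.5 CPM after MCAO (35.3-fold in mean CPM, log2 fold change 5.13 ± 0.86, adjusted p = 5.12e-05); replicate A lay among the shams. On day 7 Cdk1 was at 5.77, 8.14, 48.8, 8.64 and 6.26 CPM against 1 count in the 4 shams, so the groups did not overlap (log2 fold change 6.37 ± 1.18, adjusted p = 0.000453, and 5.28 ± 1.17, adjusted p = 0.00501, without replicate C). Ccna2, cyclin A2 of S and G2 phase, had 1 sham count on each day. It was at 1.07, 8.13, 12.5, 11.7 and 21.6 CPM on day 3 (log2 fold change 6.04 ± 0.99, adjusted p = 3.13e-05) and at 4.04, 2.54, 10.1, 4.32 and 1.25 CPM on day 7 (4.57 ± 1.06, adjusted p = 0.00382). Without replicate C the day 7 estimate of Ccna2 was 4.05 (adjusted p = 0.022), which was not called. Every MCAO library of Ccna2 was above every sham library on both days. Foxm1, the transcription factor of the G2 and M programme, Plk1, a mitotic kinase, Ccnb2, a mitotic cyclin, and Aurka, the centrosomal Aurora kinase, had log2 fold changes of 4.04, 3.08, 2.96 and 2.64 on day 3; none of these 4 was called on day 7. The day 3 calls of Ccnb2 and Aurka were lost under 9 and 10 of the alternative fits or library omissions.

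Ccnb1, the main mitotic cyclin, differed from the other cyclins in having a level in every library. Its shams of day 3 spread from 0.937 to 15.6 CPM and its MCAO libraries held 3.20, 22.6, 17.5, 39.1 and 23.4 CPM, with replicate A inside the sham range (log2 fold change 1.36 ± 0.50, adjusted p = 0.0844). At 3 h it held 16.9, 16.5, 14.7, 13.8 and 11.8 CPM after MCAO against 4.75, 2.88, 1.35 and 3.27 in sham, so that every MCAO library was above every sham library. The log2 fold change at 3 h was 2.23 ± 0.58, with an adjusted p of 0.0845, the smallest of the 44 genes at that time, and the gene was not called there. Fitted on the 2 groups of 3 h alone it was called (log2 fold change 2.23 ± 0.33, adjusted p = 0.00188). Cdk1 was near the floor in both groups of 3 h, with no count in the 5 MCAO libraries and 2 counts over the shams. A processed copy named Ccnb1-ps is annotated, and reads of the gene and its copy could be split by the counting.

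The 3 chromosomal passenger genes encode parts of the complex that corrects attachment of chromosomes to the spindle. Birc5 (survivin) was at 1.09, 1.39, 3.27 and 1.87 CPM in sham and at 4.27, 23.5, 53.9, 40.0 and 49.8 CPM on day 3, with no overlap, and the log2 fold change was 4.16 ± 0.61 (adjusted p = 6.4e-06). On day 7 it was at 6.92, 6.11, 33.3, 4.32 and 8.14 CPM against 1.14 to 3.19 in sham, again with no overlap (2.42 ± 0.62, adjusted p = 0.00905). Without replicate C it was 1.54 ± 0.60 (adjusted p = 0.134), which was not called. Cdca8 (borealin) was called on day 3 at 3.40 and not on day 7. Aurkb, the kinase of the complex, had 36 counts over the day 3 MCAO libraries and 1 in sham, at 0, 2.26, 4.50, 2.44 and 7.49 CPM (log2 fold change 4.31 ± 1.15, adjusted p = 0.012), and was not called.

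Of the 7 genes of the kinetochore, the spindle checkpoint and the anaphase-promoting complex, 6 were called on day 3 and 4 on day 7. That was the largest number of any role on day 7, though the roles differ in size. Ube2c, the ubiquitin enzyme of the anaphase-promoting complex, had 2 counts in the shams of day 3 and was at 1.07, 23.9, 43.0, 31.2 and 41.9 CPM after MCAO, 133 times sham with a counting interval of 36.4 to 1100 (log2 fold change 6.67 ± 0.86, adjusted p = 6.7e-07). On day 7 it was at 5.19, 5.09, 20.8, 1.92 and 8.14 CPM against 1 count in sham (5.45 ± 1.00, adjusted p = 0.000379, and 4.76 ± 1.01, adjusted p = 0.00377, without replicate C). Neither day showed an overlap with sham. Cenpf, a kinetochore protein of G2 and M phase, was raised in replicate A too: the day 3 MCAO libraries held 11.2, 24.9, 33.0, 45.4 and 59.9 CPM against 1.45, 0.923, 5.14 and 1.87 in sham (log2 fold change 3.88 ± 0.53, adjusted p = 1.84e-06). On day 7 they held 12.1, 9.67, 30.3, 13.4 and 5.01 CPM against 0 to 1.72 in sham (4.34 ± 0.68, adjusted p = 3.93e-05), the smallest adjusted p of the 44 genes on that day, and the estimate was 3.86 ± 0.68 (adjusted p = 0.000424) without replicate C. Spc25, of the Ndc80 complex, and Cenpe, the kinetochore motor, were called on both days (4.66 and 2.72 on day 3, 3.70 and 2.53 on day 7). Without day 7 replicate C they were at 2.95 and 1.60 and were not called (adjusted p of 0.0371 and 0.139), and the day 3 call of Cenpe was lost under 1 alternative. Cdc20, an activator of the anaphase-promoting complex, and Bub1b, of the checkpoint, were called on day 3 and not on day 7 (4.08 and 3.51), and the difference between the days was called for neither. The day 3 call of Bub1b was lost under 4 alternatives. Bub1 had no sham count on day 3 and 39 after MCAO, at least 11.3-fold higher, and was not called (adjusted p = 0.014).

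Of the 6 spindle genes, 4 were called on day 3 and 1 on day 7. Tpx2, which activates Aurora A on the spindle, was at 2.18, 2.31, 1.40 and 2.81 CPM in sham and at 3.20, 16.7, 31.96, 28.3 and 37.0 CPM on day 3 (log2 fold change 3.40 ± 0.55, adjusted p = 2.74e-05), with no overlap. Nusap1, which bundles spindle microtubules, had 3 counts in sham and was at 2.67, 12.7, 19.98, 27.4 and 22.5 CPM on day 3 (5.45 ± 0.87, adjusted p = 2.59e-05). On day 7 Nusap1 was at 5.77, 2.04, 26.8, 1.44 and 3.13 CPM against 1.72, 0, 0 and 0.456 in sham, where replicate D lay inside the sham range (3.76 ± 0.87, adjusted p = 0.00388). Without replicate C it was 2.44 ± 0.84 (adjusted p = 0.0805) and was not called. Hmmr and Ckap2l, both spindle-associated proteins, were called on day 3 at 4.21 and 4.87. The motor Kif11, which separates the spindle poles, and the chromokinesin Kif4 were not called, with 3.13 and 2.94 and adjusted p of 0.0264 and 0.0235.

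Of the 6 cytokinesis genes, 4 were called on day 3 and 1 on day 7. Kif20a, a motor of the midzone, had no count in the shams of day 3 and was at 0, 5.87, 5.99, 3.91 and 8.37 CPM after MCAO, at least 14.8-fold higher (adjusted p = 0.00337); replicate A was at 0 like the shams, and the call was lost under 7 alternatives. Prc1, the bundler of midzone microtubules, rose 33.1-fold on day 3 (log2 fold change 5.02 ± 0.83) and 21.3-fold on day 7 (4.18 ± 0.97) in mean CPM. Without day 7 replicate C the ratio was 9.66 (3.06 ± 0.97, adjusted p = 0.0559), which was not called. In day 3 replicate A Prc1 was at 1.07 CPM, inside the sham range of 0 to 3.74. Kif23, a midzone motor, and Ect2, the activator of RhoA at the cleavage furrow, were called on day 3 at 2.44 and 4.82, and these calls were lost under 8 and 7 alternatives. Racgap1, the partner of Kif23, was at 8.77 to 14.9 CPM in the shams of day 3 and 11.2, 22.6, 28.0, 32.7 and 35.3 CPM after MCAO (1.25 ± 0.35, adjusted p = 0.0165), and was not called. Anln, an actin binder of the furrow that myelinating cells also express, changed least of the 44 genes on day 3: it was at 8.34, 10.2, 3.27 and 8.90 CPM in sham and 5.34, 8.59, 13.5, 14.2 and 13.2 CPM after MCAO (0.51 ± 0.41, adjusted p = 0.501).

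All 3 chromosome genes were called on day 3 with a median log2 fold change of 6.70 (6.21 with Ncapg, which had no sham count, at its bound). Mki67, the proliferation antigen that coats mitotic chromosomes, had 1 count over the 4 shams and was at 2.13, 18.5, 33.96, 24.4 and 36.1 CPM on day 3, 217 times sham with a counting interval of 38.5 to 8590 (log2 fold change 7.10 ± 1.02, adjusted p = 6.21e-06). On day 7 it was at 5.77, 2.54, 35.7, 3.84 and 1.88 CPM, again against 1 sham count (5.72 ± 1.09, adjusted p = 0.000551), and neither day showed an overlap. Without replicate C the day 7 estimate of Mki67 was 4.26 ± 1.04 (adjusted p = 0.0114), which was not called. Top2a, the topoisomerase that untangles sister chromatids, was at 2.54, 0.462, 1.40 and 0.937 CPM in sham and 6.41, 84.05, 145.8, 134.8 and 169.2 CPM on day 3, with no overlap (81.0-fold in mean CPM, 6.21 ± 0.76, adjusted p = 1.39e-07, the smallest of the 44 genes). On day 7 Top2a was at 12.7, 11.7, 126.1, 9.60 and 12.5 CPM against 4.005, 3.73, 1.09 and 1.37 in sham (3.72 ± 0.72, adjusted p = 0.000583). Without replicate C it was 2.17 ± 0.61 (adjusted p = 0.0274), which was not called. Ncapg, a condensin subunit, had no sham count on day 3 and was at least 19.5-fold higher (adjusted p = 0.000715).

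**Figure D4:**
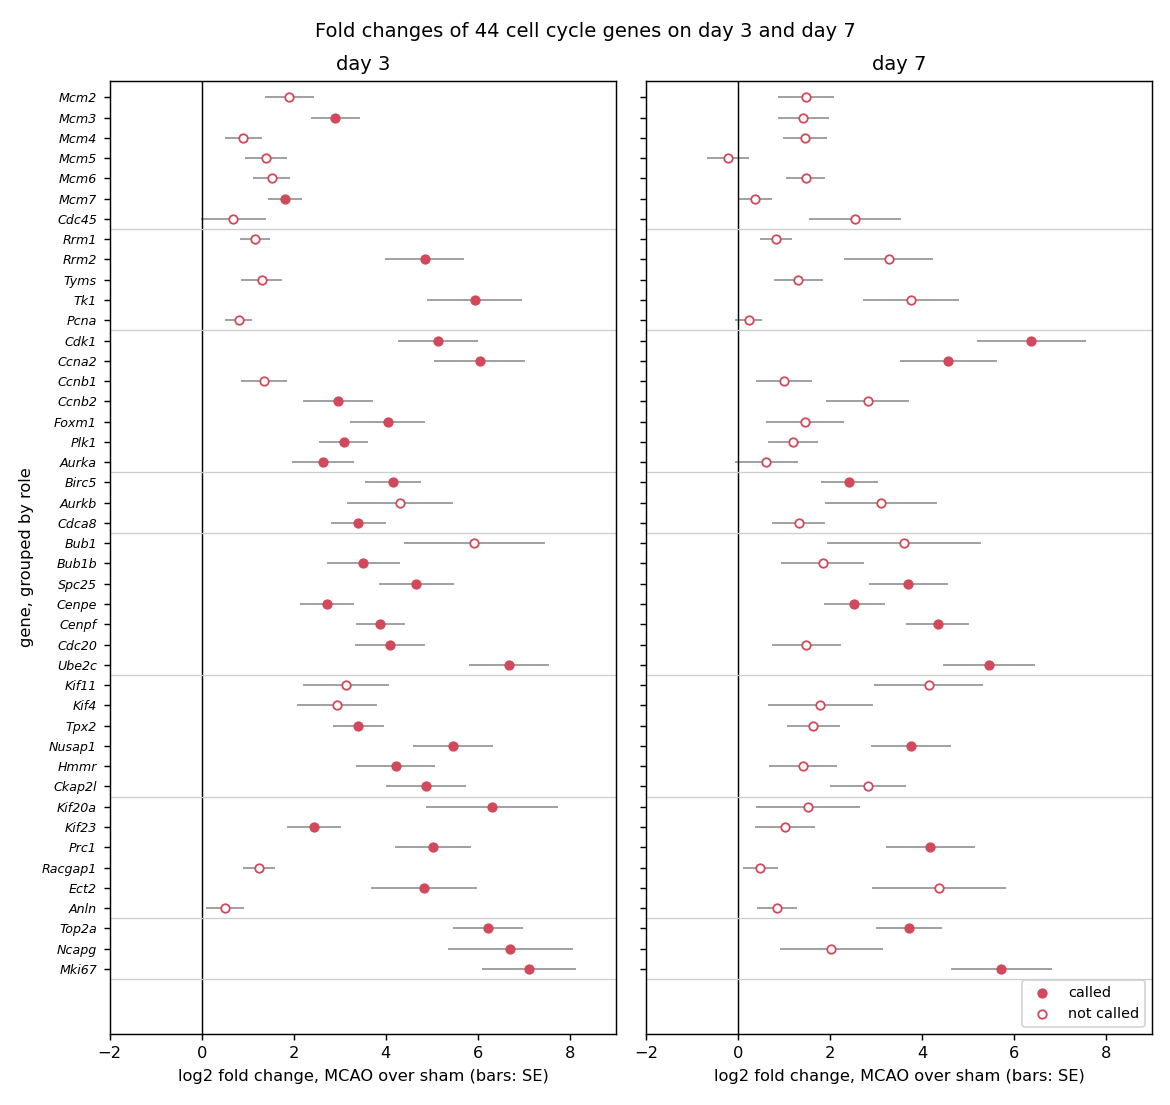
Log2 fold change of MCAO over sham with its SE (x axis) for each of the 44 genes (y axis, grouped by role with grey lines) on day 3 and day 7; filled points were called and open points were not. On day 3 all 44 points lie above 0, from 0.51 for Anln to 7.10 for Mki67, and on day 7 they run from -0.22 for Mcm5 to 6.37 for Cdk1.

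Before day 3 no gene of the list was called. The counts were 0 of 44 at 3 h, 12 h and 24 h against sham by edgeR (background 0.0901%, 0.346% and 0.0801% called higher and 0.02%, 0.0651% and 0.01% lower), and 0 at each time by DESeq2. At an unadjusted p under 0.05 there were 4 (3 higher and 1 lower), 7 and 6 (all higher), or 9.09%, 15.9% and 13.6%, beside 8.45%, 14.6% and 8.80% of all tested genes. The median log2 fold changes were -0.17, 0.40 and 0.64. Genes for which every MCAO library was above every sham library were Ccnb1, Cenpf and Kif11 at 3 h, Mcm3, Tk1 and Nusap1 at 12 h, and Mcm2, Mcm3, Mcm7, Cenpe and Kif4 at 24 h, beside a background of 2.27%, 2.03% and 3.73% of all tested genes. Mcm3 was at 8.16, 7.77, 9.39, 11.2 and 7.15 CPM at 12 h against 1.17 to 3.35 in sham, and at 23.8, 12.2, 9.74 and 17.7 CPM at 24 h against 4.16, 3.79, 2.44 and 5.77. Its groups did not overlap at either time, and its adjusted p was 0.125 at 12 h (log2 fold change 1.73 ± 0.58) and 0.161 at 24 h (1.94 ± 0.57). Against control at 24 h, 0 were called (background 0.12% higher and 0.16% lower), with 7 of 44 at an unadjusted p under 0.05 beside 2199 of all 19970 tested genes, and the nearest was again Mcm3 (2.40 ± 0.59, adjusted p = 0.0329); DESeq2 called 1, Mcm3.

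The replication share of the summed level was alike in MCAO and sham at 24 h, and lower in MCAO at 3 h. At 24 h the replication genes were at 131.3, 108.0, 95.32 and 144.2 CPM after MCAO against 77.79, 66.37, 67.08 and 95.95 in sham, with 1 MCAO library below the highest sham, and the mitosis genes at 103.7, 71.51, 61.85 and 89.83 CPM against 49.93 to 56.63, with no overlap. Replication genes made up 55.88% to 61.62% of the summed level in MCAO and 56.12% to 62.89% in sham at 24 h. At 3 h the replication sum was 54.85 to 72.43 CPM after MCAO against 57.73 to 91.58 in sham. The mitosis sum at 3 h was 63.34 to 78.96 CPM against 58.15 to 63.78. Replication genes thus made up 40.99% to 47.89% in MCAO and 49.16% to 58.95% in sham at 3 h, a difference that was not tested. Scaled to the spike-ins, the total of the 44 genes at 12 h overlapped with sham (131 to 201 against 97.9 to 161 CPM).

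The change of the effect between times was tested as an interaction. For the MCAO effect on day 3 less that at 24 h, 0 of 44 genes were called by edgeR (background 0.01% called higher), 23 (52.3%, beside 8.82% of all tested genes) had an unadjusted p under 0.05, 42 of 44 estimates were above 0 and the median was 2.67; DESeq2 also called 0. Birc5 had the smallest adjusted p, 0.113, with an estimate of 4.16 ± 0.97. For day 7 less day 3, 0 were called (background 0.0% in either direction), 12 (27.3%, beside 16.2% of all tested genes) had an unadjusted p under 0.05, 7 of 44 estimates were above 0 and the median was -1.39; DESeq2 called 0. The calls on day 3 and their absence at 24 h thus do not, by this test, show that the effects differed. The 5 sham groups together against control gave 0 calls by edgeR and by DESeq2 (background 0.0% higher and 0.02% lower), with 1 gene, Kif20a, at an unadjusted p under 0.05 (2.27%, beside 4.77% of all tested genes).

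Other genes of the cell cycle machinery were read from 4 lists, whose counts stand beside 3.76% of all tested genes called higher on day 3 and 2.07% on day 7. Of 50 further replication genes 5 were called higher on day 3 and 0 on day 7, with medians of 0.80 and 0.15. Cdt1 and its inhibitor Gmnn, which license origins and prevent a second licensing, had log2 fold changes of 2.85 and 2.79 on day 3, and Chaf1a, of the chromatin assembly factor, had 1.99. Of 64 further mitosis genes tested, 26 were called higher on day 3 and 4 on day 7, with medians of 2.99 and 1.33, among them the mitotic kinase Pbk (6.30 on day 3 and 5.66 on day 7). A single one of the 64 was called lower on day 7, Pttg1 (securin), at -1.1 ± 0.25 (adjusted p = 0.00352), and was singled out after its value was seen. Of 27 cyclins, partner kinases and E2F factors of G1 phase 2 were called on day 3 (0 on day 7), the D-type cyclins Ccnd1, from a mean of 179.5 to 384.6 CPM (1.1 ± 0.23), and Ccnd3, from 33.33 to 78.72 CPM (1.24 ± 0.22).

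Of 16 inhibitors of Cdk and arrest genes, 2 were called at 12 h, 1 on day 3 and 1 on day 7, all higher, beside 0.346%, 3.76% and 2.07% of all tested genes. The single calls on day 3 and day 7 are near these shares. Cdkn1a (p21), which halts the cycle downstream of p53, had a mean of 171.5 CPM after MCAO and 61.73 in sham at 12 h (log2 fold change 1.48 ± 0.32, adjusted p = 0.009). Its MCAO libraries of 12 h ran from 76.39 to 292.6 CPM and its shams from 42.08 to 94.38, which overlapped. At 3 h its means were 276.0 and 103.9 CPM, with an adjusted p of 0.0239. Mdm2, the p53 target that degrades p53, was called at 12 h (0.87 ± 0.19, adjusted p = 0.00944). Cdkn2c (p18), an inhibitor of the D-type kinases, was called on day 3 (3.37 ± 0.66, adjusted p = 0.000438), and Gas1, named after its value was seen, on day 7 (1.65 ± 0.39, adjusted p = 0.00412). The medians of the list were 0.47 on day 3 and 0.61 on day 7.

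Sums of markers of other cells differed between libraries as well. The 12 microglia markers summed to 831.7, 1823, 3682, 2375 and 3242 CPM in the day 3 MCAO libraries A to E, against 363.5 to 464.9 in sham, and to 1138, 1467, 4936, 1123 and 1611 CPM on day 7 against 516.1 to 649.6. Library A of day 3 was thus the lowest and library C of day 7 the highest of their groups for both sets, and 10 of the 12 markers were called higher on day 3 and 7 on day 7, beside 3.76% and 2.07% of all tested genes. The 9 fibroblast markers summed to 183.6, 467.7, 927.9, 175.3 and 1699 CPM on day 3 and to 200.8, 236.1, 5977, 567.6 and 481.0 CPM on day 7, against at most 230.4 in any sham or control library. The 10 peripheral myeloid markers summed to 72.07, 164.9, 555.8, 115.7 and 552.6 CPM on day 3 and reached 522.9 in library C of day 7, with 55.96 to 101.2 in the other 4. The 10 OPC markers were at 245.0, 429.3, 517.4, 534.2 and 520.9 CPM on day 3 and at 379.1, 365.4, 405.7, 360.8 and 398.9 on day 7, against 173.4 to 327.5 in all sham and control libraries, and the 10 endothelial markers at 321.9, 535.9, 810.5, 463.9 and 771.6 CPM on day 3 and at 326.6, 332.8, 367.1, 355.5 and 395.8 on day 7, against 259.5 to 410.4. In library C of day 7 the endothelial sum thus lay within the other 4 and the OPC sum just above them, and on day 3 the lowest fibroblast sum was that of D. Neuron markers were at 6143 to 8262 CPM in day 3 B to E and 9570 in A, and at 5768 in day 7 C and 8115 to 9411 in the other 4. The part of these cell types in the result was not tested.

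Astrocyte markers (10 genes) summed to 4903 to 5887 CPM in MCAO on day 3 against 5300 to 5550 in sham, oligodendrocyte markers (9) to 1702 to 4955 against 1716 to 3950, pericyte markers (8) to 157.5 to 267.5 against 144.3 to 176.8, and neuroblast markers (7 matched) to 370.6 to 482.1 against 454.4 to 546.6. Granulocyte markers (8) reached 714.6 CPM in library C of day 3 and 8.541 to 100.9 in the other 4, against at most 12.93 in sham and control. The granulocyte precursor list, whose genes belong to dividing bone marrow cells, stayed at 0.977 to 4.99 CPM on day 3 against 1.39 to 3.75 in sham, with 2 of its 8 genes at 0 in all libraries. T and B cell markers (10, of which 2 were at 0 throughout) were at 4.27 to 19.5 CPM against 1.40 to 17.1. Erythroid genes (5) summed to 97.69 to 478.4 CPM on day 3 against 12.18 to 23.57, and ependymal and choroid plexus markers (8) to 16.48 to 44.74 against 5.622 to 19.62, with 500.5 CPM in control replicate A. On day 7, library C stood at 4113 CPM of astrocyte markers against 6145 to 6360 in the other 4, at 1864 of oligodendrocyte markers against 2989 to 5122, at 393.8 of neuroblast markers against 554.2 to 635.1, and at 296.9 of pericyte markers against 162.1 to 222.3.

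**Figure D5:**
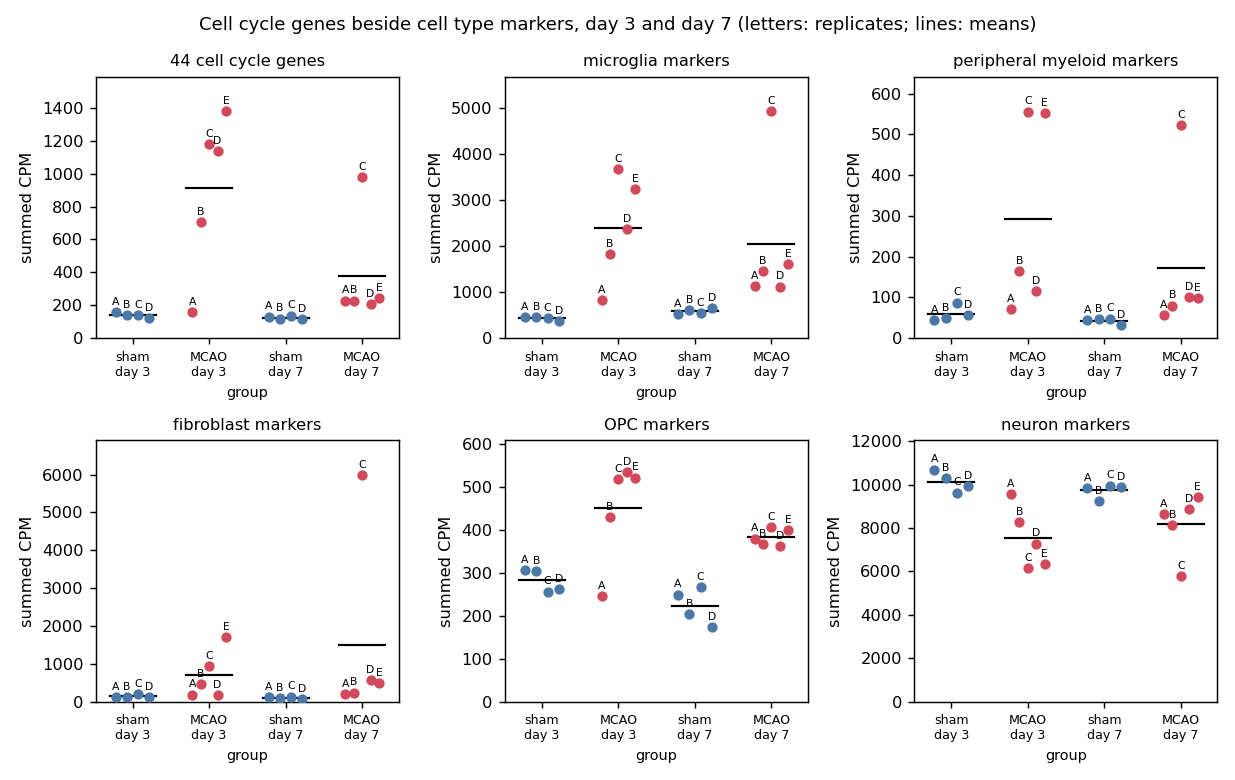
Summed CPM of the 44 cell cycle genes and of 5 marker lists (microglia, peripheral myeloid cells, fibroblasts, OPC, neurons) in the sham and MCAO libraries of day 3 and day 7; points are libraries with their replicate letters and lines are means. Day 3 MCAO library A is the lowest of its group in all panels but those of fibroblasts and neurons, and day 7 library C is at 977.5 CPM for the 44 genes, 4936 for microglia and 5977 for fibroblasts.

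Some counts carry an uncertainty of position. Of the 44 genes, 19 overlap another annotated gene, among them Mcm7, Ccna2 (with Exosc9), Nusap1 (with Oip5), Ube2c (with Tnnc2) and Kif20a (with Cdc23), and the strand setting of the counting is not given in the sources used here. For Pcna, Ccnb1, Ccnb2 and Kif4 a named pseudogene is annotated.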

How the data were processed

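QuantSeq 3′ libraries of mouse brain tissue (48, in 11 groups of 4 or 5) were analysed from the gene counts the authors deposited. Per the study's methods, reads were trimmed, cleared of ribosomal and mitochondrial reads, aligned with STAR 2.5.2b to GRCm38 with spike-in sequences and counted with HTSeq in union mode. Strand setting: not given in the sources used here. The authors also deposited a log2 matrix of variance-stabilized values, used here only as an alternative scale. Gene symbols came from a GRCm38 annotation.

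The 19970 genes whose counts summed to more than 10 were fitted over all 48 libraries with edgeR 4.0.16 (quasi-likelihood test, TMM scaling, a mean for each group, R 4.3.3); a call needed a Benjamini-Hochberg adjusted p under 0.01 and a log2 fold change beyond 0.58. The deposited counts totalled 1522668 to 2826735 per library, and the common biological coefficient of variation was 24.9%. SE is the fold change over the square root of F. Ratios against 1 to 3 sham counts carry 95% exact counting intervals and, against 0, a floor of 3 counts over the group; both cover counting error only. Libraries were taken as replicates by their labelled letters. Fits were tested on simulated data. Alternatives were DESeq2 1.42.0, its size factors, spike-in scaling, other filters, fewer groups, a replicate block and leaving out each library.

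Members and lists were chosen with earlier results of these data known. Libraries' values were given for Mki67, Top2a and Cdk1, for the gene of highest mean CPM and of largest day 3 fold change in each role, and for uncalled genes of mean CPM of at least 5; from each other list, for at most 3 genes called on day 3 and those called at 3 h or 12 h. Other members were named by estimates or to account for a count.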

Additional observations from a re-analysis of the deposited data

Results flagged for a closer look

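In each group of 4 or 5 libraries the highest and lowest library was compared with the rest (Dixon's criterion), for the sums and for genes whose library values were described. Of 79 groups so compared, 14 had such a library. Chance gives about 1 in 20 for independent comparisons, which these are not: 13 of the 14 were 1 library, MCAO replicate C on day 7, seen through 3 overlapping sums and 10 of their genes. It stood at 977.5 CPM for the 44 genes against 204.9 to 245.5 in the other 4, at 298.1 CPM for the replication genes against 79.65 to 105.8, and at 679.4 CPM for the mitosis genes against 125.2 to 145.0.

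Among single genes, replicate C held 35.7 CPM of Mki67 (1.879 to 5.77 in the other 4), 126.1 of Top2a (9.596 to 12.69), 48.78 of Cdk1 (5.77 to 8.637) and 33.32 of Birc5 (4.318 to 8.142). It held 26.77 CPM of Nusap1 (1.439 to 5.77) and 24.39 of Tk1 (0.0 to 2.885). Of the genes with a level in sham it held 37.48 CPM of Mcm3 (3.053 to 8.142), 42.24 of Pcna (10.96 to 15.66), 20.82 of Mcm2 (2.036 to 6.346) and 29.15 of Mcm6 (8.768 to 12.0). The remaining one was sham replicate D on day 7, with a replication sum of 77.56 CPM against 69.77 to 70.0 in the other 3.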

How the results depend on the processing

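The count of members called moved by over 1.5 times as follows. Fitted on the compared groups alone, 1 was called at 3 h, 3 on day 7 against sham and 3 on day 7 against control. Against control at 24 h, 1 was called by DESeq2 and 1 with no filter on low counts. Leaving out each library in turn gave 3 to 13 calls on day 7 against sham (3 without MCAO C, 5 without sham B, C or D). Against control on day 7 it gave 0 to 10 (0 without MCAO C, and 1, 2, 4 and 2 without control A, B, C and D). On day 3 against sham it gave 22 to 37, which stayed within 1.5 times the 29 of the main fit. The log2 ratio of the summed level over sham was 0.36 at 12 h, 0.63 at 24 h, 2.7 on day 3 and 1.59 on day 7, and the difference of mean deposited variance-stabilized values, a compressed scale, was 0.13, 0.23, 1.22 and 0.59. The cause of these shifts was not tested, except that the compared groups alone leave fewer libraries for the spread.

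Of the 29 genes called on day 3, 21 were called under every alternative fit and without each library, and of the 11 on day 7, 3 were. No call reversed. The replicate letters were not taken to pair the libraries, since in no contrast did every same-letter correlation of deviations exceed 0.1: they ran from -0.144 to 0.136 at 3 h, -0.26 to 0.127 at 12 h, -0.084 to 0.147 at 24 h, -0.128 to 0.093 on day 3 and -0.085 to 0.1 on day 7, and 2 of 4 were over 0.1 at 12 h and at 24 h. With 4 same-letter pairs in each contrast, this rule cannot exclude pairing. The median correlation was 0.082 at 12 h and 0.113 at 24 h for same letters, against 0.024 and 0.041 for different letters. On day 3 and day 7 it was 0.006 and -0.002 for same letters, against -0.006 and 0.009. With the letter as a replicate block, 26 genes were called on day 3, 9 on day 7, 26 and 6 against control on these days, and 0 in the other comparisons. Genes at a few counts are limited by depth.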
